A study of Homo sapiens with 16 samples.

Results

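HeyA8 cells transfected with siCAG were compared with HeyA8 cells transfected with the control siNT1, which took in 4 of the 16 samples of the series, chosen by their labels. HeyA8 is a human ovarian cancer cell line derived from HEY-T30, listed as wild type. Cells in 6-well plates received an siRNA with the lipid reagent RNAiMax, and total RNA was taken 24 or 48 h later. The labels give 1 nM of siRNA for each transfected sample, whereas the methods of the study speak of another dose and do not name siCAG, whose sequence was not given in the sources used here. The other 4 HeyA8 samples, mock-treated cells and cells given 1 nM of siGGGGGC (siMxy in the sample titles) at the same times, shared the estimate of spread, and PC3 prostate cancer cells given the same siRNAs served for comparison between lines. The titles write siNT for the control and do not themselves equate siNT with siNT1 or siMxy with siGGGGGC. The study names siNT1 and siGGGGGC for both lines, and its names are used here. All titles of transfected samples, but not those of mock, also carry a shared suffix that neither the titles nor the methods explain. Each siRNA had 1 library at 24 h and 1 at 48 h, so that the 2 replicates of a condition are its 2 time points and every standard error includes the part of the change between them that the conditions of the line do not share. For the siRNAs they name, the methods describe wells transfected together and lysed at either time, so the p-values measure the spread between such samples and not between independent experiments. Between 29128446 and 31790209 reads were counted on genes in the HeyA8 libraries.

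Proliferating cells copy their DNA and divide through successive waves of transcription. E2F factors, held in check by proteins of the RB family, turn on genes for origin licensing, helicase loading, nucleotide supply and DNA synthesis at the start of S phase. A later wave depends on the MuvB complex with B-MYB and FOXM1, acts through cell cycle homology regions (CHR) in promoters and supplies cyclin B, mitotic kinases and spindle proteins. Stress can arrest this program: p53 induces the CDK inhibitor p21, and phosphorylation of eIF2 raises translation of ATF4, which induces genes of amino acid supply and redox balance in what is called the integrated stress response. Marker genes were read to check the label of the cells. The vimentin gene VIM had 194000 and 193700 normalized counts in the siNT1 libraries of 24 and 48 h, PAX8 had 4321 and 4985, and WT1 had 489 and 410, whereas ESR1 and PGR were at 0 and MUC16 at 4.83 and 0. Of markers of other cells, KLK3 and CD3E were at 0 in all 4 libraries and PTPRC had at most 1 read. The 7 prostate markers, KLK3 among them, summed to 406 and 355 normalized counts after siNT1 and 140 and 438 after siCAG. Of these 2 were tested, both at least 2-fold lower at 24 h, and 0 passed. The 5 immune markers summed to 12 and 8 after siNT1 and 4 and 1 after siCAG. Of 5 endothelial markers CDH5 was the most abundant, with 97.6 and 144 normalized counts after siNT1 and 176 and 248 after siCAG, and the sum of the 5 was 132 and 167 after siNT1 and 245 and 360 after siCAG. TEK had at most 5 reads in these libraries, 0 of the 4 endothelial markers tested passed the test, all 4 had positive log2 fold changes, KDR passed against mock (log2 fold change 2.31, adjusted p = 0.0432), and their part in the results was not tested. Since the RNA came from whole cultures, fewer cells of a kind and less RNA per cell cannot be told apart in any value below.

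Of 26485 genes in the table, 13872 passed the filter on low counts. After siCAG 684 of them (4.93%) were lower and 399 (2.88%) higher than after siNT1, at a Benjamini-Hochberg adjusted p under 0.05 in edgeR's quasi-likelihood test, the source of every adjusted p given here. All 1083 called genes had the same sign at 24 and 48 h, 665 of the lowered and 380 of the raised ones by at least 2-fold, and the median size of a call was 3.5-fold for lowered and 2.89-fold for raised genes. Against mock-treated cells 767 genes (5.53%) were lower and 477 (3.44%) higher in the same model, while siNT1 against mock gave 0 calls (0%), with 177 genes at an unadjusted p under 0.05 and 1 call by DESeq2. siGGGGGC against siNT1 also gave 0 calls in these cells, with 1352 genes at an unadjusted p under 0.05. Over the genes tested, log2 normalized counts correlated at 0.923 between the 2 siCAG libraries and at 0.987 between the 2 siNT1 libraries. The siCAG libraries correlated with the other 6 at 0.8845 to 0.9318, so that the siCAG library of 24 h was closer to both siNT1 libraries and both mock libraries than to that of 48 h, and the other 6 correlated among themselves at 0.9555 to 0.989. The number of calls rested on the tool and on which libraries entered the fit. DESeq2 gave 1513 lowered and 1152 raised genes. In edgeR the counts were 432 and 148 when only the 4 siCAG and siNT1 libraries were fitted, and 210 and 56 without the siGGGGGC libraries. They were 53 and 1 without the siNT1 library of 24 h and 42 and 0 without that of 48 h, so that at most 1 raised gene of any list below was still called there. Without the siCAG library of 24 h they were 2498 and 2022, and without that of 48 h 3119 and 1571.

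Genes of DNA replication and the E2F program formed the group with the highest share of lowered members. Of 67 listed genes, all tested, 45 fell (67.2%, against 4.93% of all genes) and 0 rose, with a median log2 fold change of -2.71 where the median over all genes was -0.011. The count of 45 came to 15 without the siGGGGGC libraries, to 8 and 7 without the siNT1 library of 24 h or of 48 h, and to 65 and 66 without either siCAG library. In 65 of the 67 both siCAG libraries lay below both siNT1 libraries, a position found for 27.4% of all genes tested. The list as a whole kept 29.3% of its siNT1 sum of normalized counts at 24 h and 12.4% at 48 h. E2F1, an activator of this program, had 1678 and 1314 normalized counts at 24 and 48 h after siNT1 and 190.5 and 21.9 after siCAG (log2 fold change -4.09, standard error 0.73, adjusted p = 0.0283). E2F2 went from 255 and 138 to 3.93 and 0 (adjusted p = 0.00564), while E2F7, a repressor of E2F targets, had 4667 and 4670 against 2740 and 4830 (log2 fold change -0.30, adjusted p = 0.581).

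CCNE2, which encodes cyclin E2 and partners CDK2 at S phase entry, had 2068 and 917 normalized counts after siNT1 and 13.8 and 36.7 after siCAG (log2 fold change -5.78, standard error 0.65, adjusted p = 0.00815). With 0.665% of its siNT1 value left at 24 h and 4.01% at 48 h, it had its lowest value at the earlier time. CCNE1 fell from 329 and 230 to 81.5 and 42.7 (log2 fold change -2.19, adjusted p = 0.0197). The licensing factor CDC6, which loads the MCM helicase at origins (chr17:40287894-40303161 on hg38), fell from 4751 and 3815 to 374 and 37.7 (log2 fold change -4.73, standard error 0.81, adjusted p = 0.0251). DTL, which marks the licensing factor CDT1 for destruction, fell from 3137 and 2827 to 267 and 12.9 (log2 fold change -4.92, adjusted p = 0.0379), and CLSPN, an adaptor of the replication checkpoint kinase, fell by 4.35 on the log2 scale (adjusted p = 0.0469). In these 3 genes the siCAG library of 48 h was far below that of 24 h and the groups did not overlap. MCM2, a subunit of the replicative helicase, had 5479 and 5683 normalized counts after siNT1 and 1111 and 443 after siCAG (log2 fold change -2.94, standard error 0.38, adjusted p = 0.0119), and MCM3, MCM4, MCM5, MCM6 and MCM7 also fell, by between 2.40 and 3.55 on the log2 scale. PCNA, the sliding clamp of the DNA polymerases, fell from 6143 and 5536 to 1016 and 1099 (adjusted p = 0.00518), with close to the same value at both times. Members that did not pass the test included genes with a wide gap between the time points, such as RRM2, the small subunit of ribonucleotide reductase, with 10050 and 7512 after siNT1 and 4366 and 36.7 after siCAG (adjusted p = 0.293).

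The promoters of these genes were read for the E2F motif, spelled TTTGGCGC, TTTCGCGC, TTTCCCGC or TTTGGCGG on either strand, in the 300 bases that run from 250 before to 50 after the RefSeq gene start on GRCh38.p14. Of 54 list members with a known promoter, 28 held it (51.9%), against 5.58% of 10618 promoters of tested genes, 13.4% of promoters of all lowered genes and 2.99% of those of raised genes. The stretches around it in DTL (chr1:212035725-212035747, plus strand) and CDC6 (chr17:40287836-40287873, plus strand) are shown because these members were among the 4 of the list with the largest fall. Capitals mark the match, which begins 8 bases before the start of DTL and 28 before that of CDC6.
DTL: agagcgtgacgtcagTTTGGCGC
CDC6: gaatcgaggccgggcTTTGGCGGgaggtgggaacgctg
A match of letters is a description and no evidence of binding. The list was drawn up to hold E2F targets, so a high share of the motif is partly built into it. Called and uncalled members were not compared.

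**Figure D1:**
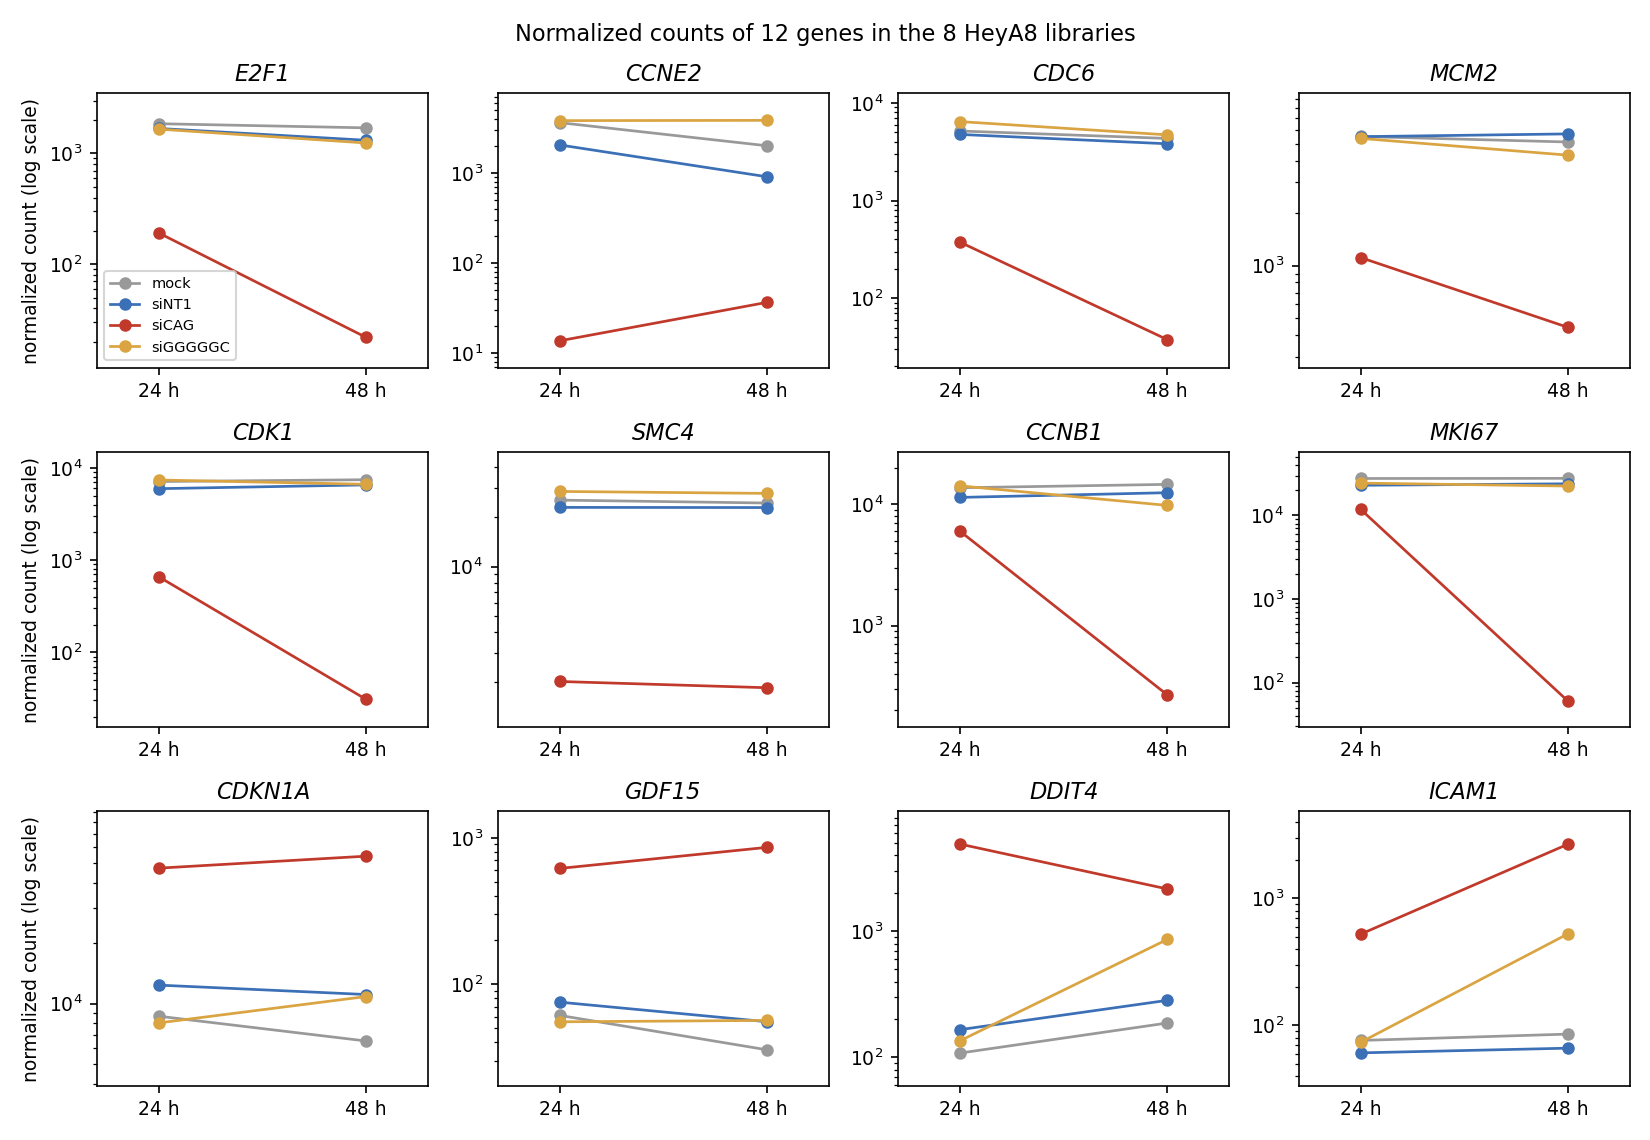
Normalized counts (log scale, vertical axes differ between panels) of 12 genes in the 8 HeyA8 libraries at 24 and 48 h, 1 point per library, with lines joining the 2 libraries of a treatment. The siCAG points of MKI67 drop from 11810 to 60.6 while those of SMC4 stay at 2021 and 1853, and those of CDKN1A, GDF15 and DDIT4 lie above all other libraries, whereas the siCAG point of ICAM1 at 24 h (523) is level with siGGGGGC at 48 h (525).

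Genes of mitosis and G2/M had lower values in both siCAG libraries, and far lower ones at 48 h than at 24 h. For the 80 listed genes, all tested, the median log2 fold change went from -1.49 (24 h) to -5.98 (48 h), and their summed normalized counts came to 39.4% of the siNT1 sum at 24 h and 4.46% at 48 h. At 48 h all 80 were at least 2-fold lower and 60 kept under 5% of their siNT1 value. At 24 h 58 were at least 2-fold lower. Of all 13872 genes tested 2530 were at least 2-fold lower at 24 h and 1963 at 48 h. Since the 2 time points serve as replicates, this gap entered the spread, and 19 of the 80 (23.8%, against 4.93% of all genes) passed the test, all of them lower. Leaving out a siCAG library removed that gap from the spread: 80 members were lower without the 24 h library and 68 without the 48 h library, in fits that assume the lone library to vary like the other groups. Without the siNT1 library of 24 h or of 48 h 5 and 4 members were lower, and without the siGGGGGC libraries 8. In 79 of the 80 both siCAG libraries lay below both siNT1 libraries, against 27.4% of all genes tested.

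MKI67, which encodes the proliferation marker Ki-67 (chr10:128096661-128126204), had 22950 and 23910 normalized counts after siNT1, 11810 at 24 h after siCAG and 60.6 at 48 h (log2 fold change -2.56, standard error 1.70, adjusted p = 0.356). CCNB1, the cyclin that drives entry into mitosis, had 11430 and 12500 after siNT1 and 5995 and 269 after siCAG (adjusted p = 0.195), and FOXM1, a transcription factor of this program, had 7772 and 8797 against 6084 and 226 (adjusted p = 0.315). KIF20A, a kinesin of cytokinesis, had 5976 and 7757 against 5644 and 31.8. These genes kept over 50% of their siNT1 value at 24 h and under 5% at 48 h. CDK1, the kinase that cyclin B activates, was already low at 24 h, with 5974 and 6564 after siNT1 and 656 and 30.8 after siCAG (log2 fold change -4.59, adjusted p = 0.0572), and CCNA2, cyclin A2, had 6672 and 7029 against 1507 and 87.4 (adjusted p = 0.0799). The 4 lowered members with the largest changes were DEPDC1, ASPM, TTK and PLK4, with log2 fold changes of -4.99, -4.86, -4.80 and -4.36. TTK, a kinase of the spindle checkpoint, fell from 3711 and 4086 to 236 and 66.5 (standard error 0.55, adjusted p = 0.00856). ASPM, a spindle pole protein, fell from 5982 and 6128 to 500 and 41.7, and PLK4, which controls centriole duplication, from 2086 and 2220 to 223 and 22.8.

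Other members of the list were already low at 24 h and did not fall much further by 48 h. SMC4, a core subunit of condensin, had 22790 and 22740 normalized counts after siNT1 and 2021 and 1853 after siCAG (log2 fold change -3.56, standard error 0.19, adjusted p = 0.00167). SGOL2, a protector of centromeric cohesion, fell from 2032 and 2074 to 106 and 100 (adjusted p = 0.00167), and KIF20B, a kinesin, from 4862 and 4325 to 273 and 304 (adjusted p = 0.00224). ECT2, an activator of RhoA in cytokinesis, was higher at 48 h (4068 normalized counts) than at 24 h (2640), both below the 11320 and 12800 of siNT1. Over the list the fold change was more negative at 24 h in 5 of 80 genes and more negative at 48 h in 75. Of all 13872 genes tested 6796 were more negative at 48 h.

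**Figure D2:**
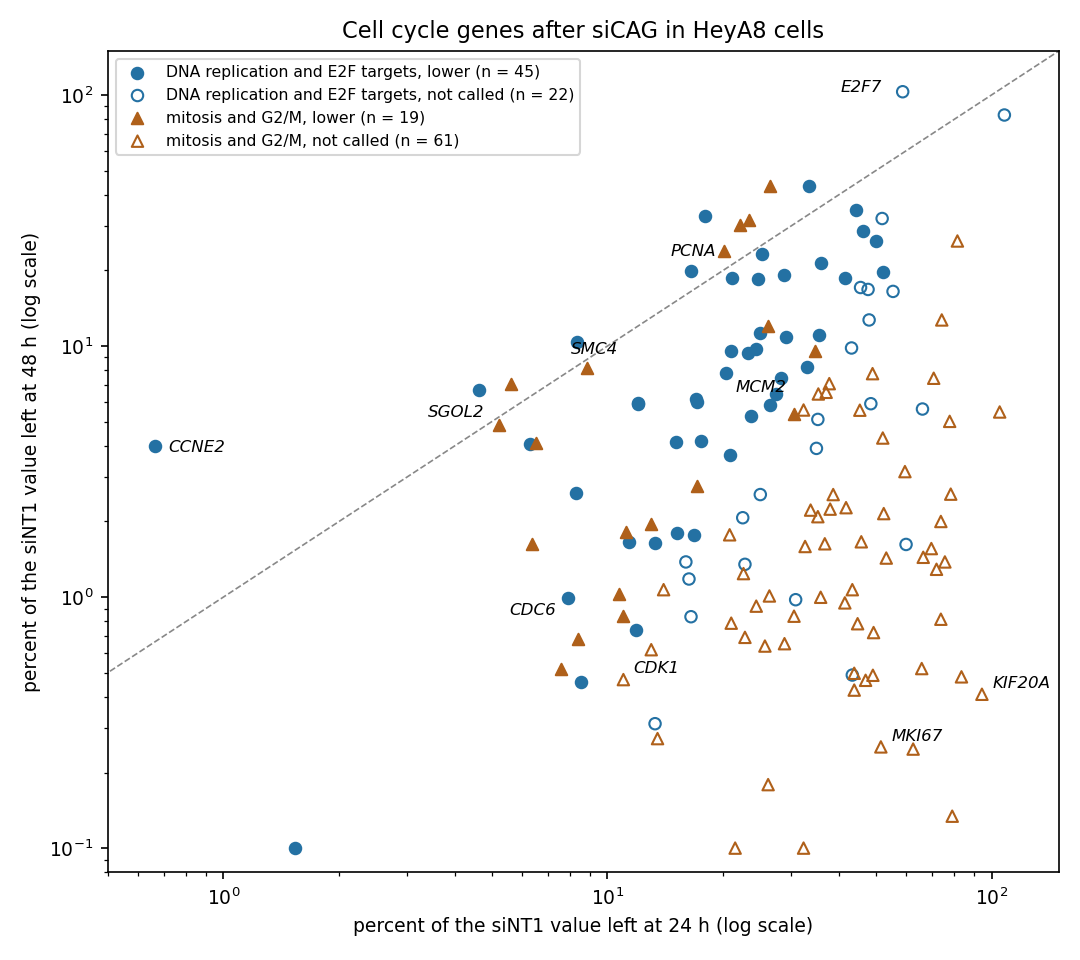
Percent of the siNT1 value left after siCAG at 24 h (horizontal) and 48 h (vertical), both on log scales, 1 point per gene of the replication and mitosis lists, filled where the gene was lower in the test; values under 0.1 are drawn at 0.1 and the dashed line marks equal shares. Most points lie below the line, MKI67 and KIF20A far to the right and bottom, SMC4 and SGOL2 near the line.

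The CHR, spelled TTTGAA or TTCGAA on either strand, was in 49 of 70 promoters of the mitosis list (70%), against 11.2% of promoters of tested genes. The CCAAT box, on either strand, was in 46 (65.7%, against 36.9%), and 36 promoters (51.4%, against 4.84%) held both. In the replication list 3 of 54 promoters (5.56%) held the CHR, and in the mitosis list 8 (11.4%) held the E2F motif. These shares describe the lists and not the response to siCAG, since called and uncalled members were not compared. The stretches around the CHR are shown for members that differed in their time course, DEPDC1 (chr1:68497089-68497124, minus strand) and ASPM (chr1:197146762-197146797, minus strand), which were low at 24 h, and MKI67 (chr10:128126432-128126467, minus strand), which kept over 50% at 24 h. Capitals mark the 6 bases of the match, which reads TTCAAA where the CHR is on the other strand.
DEPDC1: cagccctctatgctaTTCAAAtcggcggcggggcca
ASPM: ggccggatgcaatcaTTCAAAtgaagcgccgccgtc
MKI67: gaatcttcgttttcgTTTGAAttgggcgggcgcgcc
The match shown for MKI67 begins 29 bases before its start, and another begins 47 bases before it. The replication and mitosis genes had no CTG run of 4 or more triplets in the spliced transcript, in 0 of 67 and 0 of 80 members, against 2.71% of all genes tested.

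Of 19 genes that govern G1, 17 were tested, 3 fell (17.6%, against 4.93% of all genes) and 1, CDKN1A, rose (5.88%, against 2.88%). Against mock 4 were lower and 3 higher. The list median was -0.56 against siNT1 and -0.27 against mock. RBL1, which encodes the RB relative p107, fell from 1944 and 1630 normalized counts to 247 and 152 (log2 fold change -3.20, standard error 0.24, adjusted p = 0.00263). CCND3, cyclin D3, fell from 1803 and 1485 to 425 and 200 (adjusted p = 0.0274), and CDK2 from 3328 and 3608 to 1497 and 710 (adjusted p = 0.0357). The most abundant G1 cyclin gene by reads, CCND1, had 55790 and 41490 after siNT1 and 26340 and 31790 after siCAG (log2 fold change -0.72, adjusted p = 0.0924). Against mock the log2 fold change of CCND1 was -0.18 (adjusted p = 0.627). RB1 was low at 24 h, with 947 normalized counts against 5166, but had 3876 against 4650 at 48 h. CDKN2A and CDKN2B, whose products inhibit CDK4 and CDK6, had at most 1 read in any of the 8 libraries.

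CDKN1A, which encodes the CDK inhibitor p21 (chr6:36676460-36687339), had 12360 and 11100 normalized counts after siNT1, 8654 and 6518 in mock-treated cells and 47200 and 54130 after siCAG (log2 fold change 2.11, standard error 0.26, adjusted p = 0.00993). Of 34 p53 targets, all tested, 7 rose (20.6%, against 2.88%) and 0 fell, with a median log2 fold change of 0.56. GDF15, a stress-induced cytokine, rose from 75.4 and 55.4 to 618 and 860 (log2 fold change 3.52, adjusted p = 0.00735). BBC3, which encodes the death inducer PUMA, rose from 235 and 290 to 931 and 784 (adjusted p = 0.0231), and BTG2, an antiproliferative gene, from 268 and 250 to 763 and 817 (adjusted p = 0.0192). In all 4 of these genes, picked for their change, the siCAG libraries lay above every other HeyA8 library. Over the list 18 of 34 had both siCAG libraries above both siNT1 libraries, a position found for 28.2% of all genes tested. The other raised members were CYFIP2, SESN2 and XPC, of which XPC did not pass against mock (adjusted p = 0.0560).

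Some other p53 targets had far higher values at 48 h than at 24 h. Over the list the fold change was higher at 48 h in 21 of 34 genes and lower in 13. It was lower at 48 h in 6796 of all 13872 genes tested, and 300 of all 399 raised genes had their larger rise at 48 h. The median log2 fold change of the list was 0.57 at 24 h and 0.82 at 48 h. MDM2, the ubiquitin ligase that limits p53, had 7906 and 7321 normalized counts after siNT1, 9689 at 24 h after siCAG and 27640 at 48 h (log2 fold change 1.21, adjusted p = 0.127). TP53INP1 had 631 and 588 against 1155 and 10900 (adjusted p = 0.0897). RRM2B, the p53-inducible ribonucleotide reductase subunit, and ZMAT3 were below siNT1 at 24 h, with 1812 against 4959 and 3418 against 7648, and above it at 48 h, with 10250 against 5381 and 13840 against 6344. CCNG1 and GADD45A, also p53 targets, had 8257 against 8668 and 3859 against 3057 at 48 h, so not all of the list was high then. Each of these values at 1 time comes from 1 library and has no test of its own.

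Most genes of the integrated stress response had their larger fold change at 24 h. Of 26 listed genes, all tested, 8 rose (30.8%, against 2.88%) and 0 fell, 1 of the 8 (NUPR1) having passed the filter only through the siCAG libraries. The median log2 fold change of the 26 went from 1.61 (24 h) to 0.26 (48 h). At least 2-fold higher were 20 of 26 at 24 h and 9 at 48 h, against 1226 and 2113 of all 13872 genes tested. In 22 of the 26 the fold change at 48 h was below that at 24 h, against 6796 of the 13872. ATF4 itself had 9865 and 10700 normalized counts after siNT1 and 33680 and 18460 after siCAG (log2 fold change 1.33, adjusted p = 0.0538). DDIT4, an inhibitor of mTORC1 (chr10:72273919-72276039), rose most, from 166 and 284 to 4919 and 2170 (log2 fold change 4.21, standard error 0.86, adjusted p = 0.0379), and had 136 and 862 after siGGGGGC. DDIT3, which encodes CHOP, rose from 139 and 251 to 744 and 745 (adjusted p = 0.0192). ALDH1L2, a mitochondrial folate enzyme, rose from 254 and 173 to 895 and 792 (adjusted p = 0.0114) and SLC7A11, the cystine transporter, by 2.15 on the log2 scale (adjusted p = 0.0350). Against mock-treated cells SLC7A11 had a log2 fold change of 1.19 and did not pass (adjusted p = 0.110). Unlike SLC7A11, which was higher at 48 h (9104 normalized counts) than at 24 h (6035), some members had values above siNT1 at 24 h and below it at 48 h. ASNS, asparagine synthetase, had 1073 and 1338 after siNT1 and 4606 and 829 after siCAG, SLC7A5, a leucine transporter, 13930 and 13020 against 30420 and 3367, and PHGDH, the first enzyme of serine synthesis, 3122 and 3062 against 8307 and 1211. CHAC1, a glutathione-degrading enzyme, and the transcription factor gene ATF3 were high at 24 h and nearer to siNT1 at 48 h, with 811 and 115 against 80.2 and 80.4, and 278 and 77.5 against 86.9 and 69.5. None of these 5 passed the test (adjusted p from 0.135 to 0.976).

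**Figure D3:**
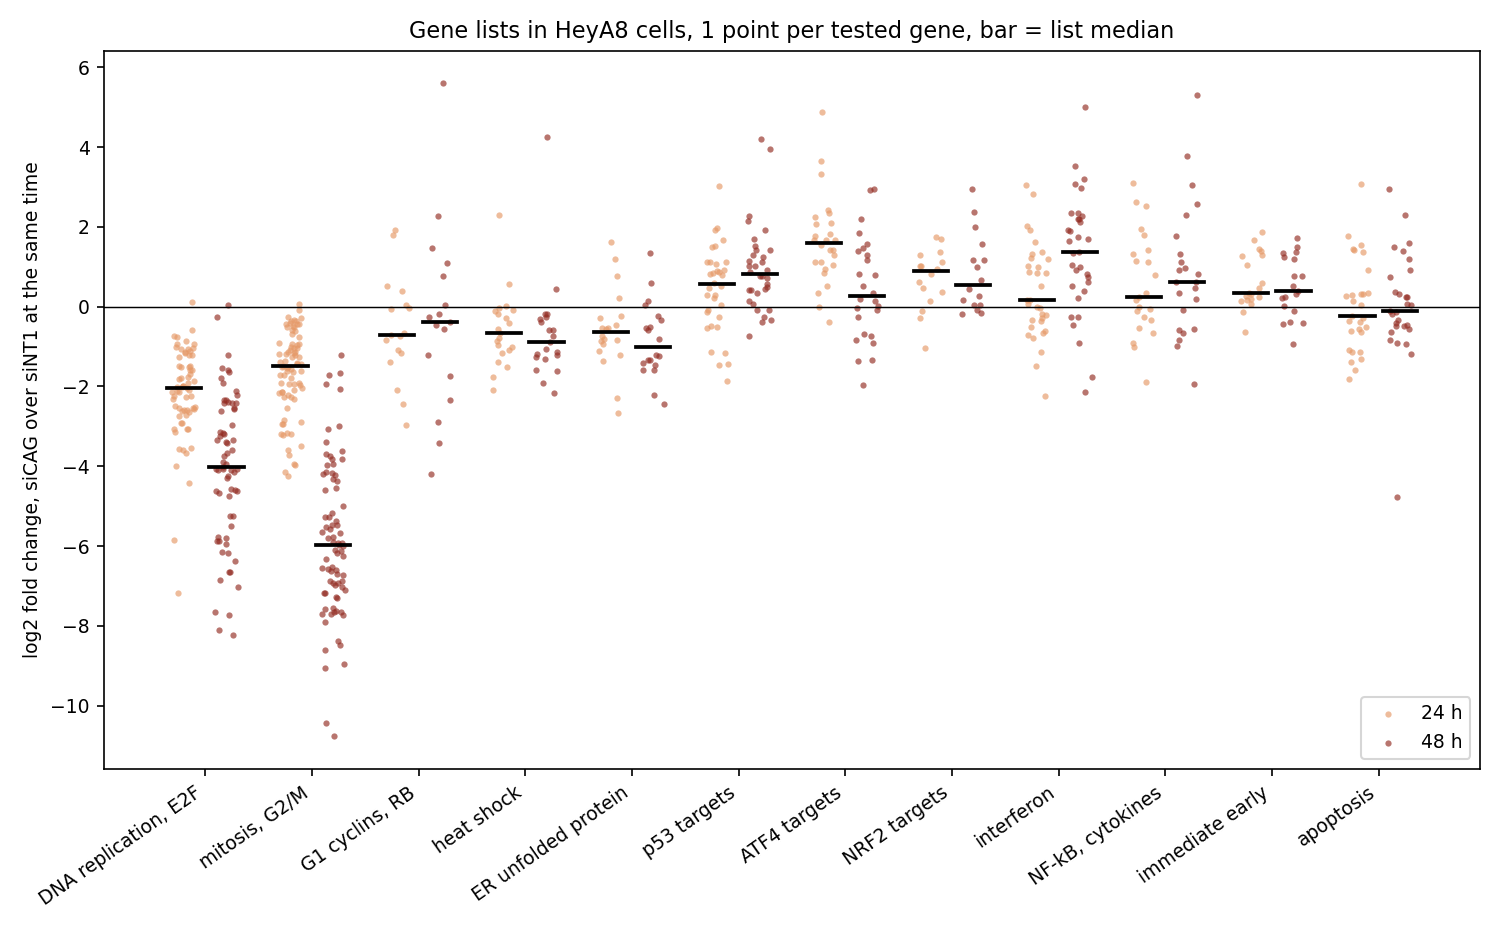
Log2 fold change of siCAG over the siNT1 library of the same time (pseudocount 0.5) for the tested members of 12 gene lists, at 24 h and 48 h, with bars at list medians. The replication and mitosis lists move from medians of -2.04 and -1.49 at 24 h to -4.01 and -5.98 at 48 h, and the ATF4 list from 1.61 to 0.26.

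Chaperone genes of the endoplasmic reticulum and the cytosol were called in the lower direction alone. Of 20 genes of the unfolded protein response 4 fell (20%, against 4.93% of all genes) and 0 rose, and against mock 2 were lower and 1 higher. EIF2AK3, which encodes the eIF2 kinase PERK, fell from 424 and 580 normalized counts to 66.8 and 125 (log2 fold change -2.42, adjusted p = 0.00872), and SDF2L1, HSP90B1 and DNAJB11 fell by 1.86, 1.41 and 1.10 on the log2 scale. Against mock SDF2L1 had -1.17 (adjusted p = 0.0803) and DNAJB11 -0.52 (adjusted p = 0.215), so neither passed there. HSPA5, the abundant chaperone BiP, had 31690 and 52310 after siNT1 and 21680 and 22160 after siCAG (log2 fold change -0.90, adjusted p = 0.0772). ERN1, the sensor IRE1, had 93.7 and 109 against 288 and 275 (adjusted p = 0.0596). Of 21 heat shock genes 6 fell (28.6%, against 4.93%) and 0 rose. HSP90AA1, the inducible cytosolic HSP90, fell from 167300 and 180200 to 49110 and 47440 (log2 fold change -1.85, standard error 0.15, adjusted p = 0.00382). HSPD1 and HSPE1, the mitochondrial chaperonin and its partner, fell by 1.58 and 1.23 on the log2 scale, and HSPH1 by 1.28, with HSPE1 just short of the threshold against mock (adjusted p = 0.0515). HSPA1B fell by 1.39 (adjusted p = 0.0284) while HSPA1A had a log2 fold change of -0.51 (adjusted p = 0.246); these neighbours are nearly identical in sequence, so the split of reads between them is uncertain. CRYAB, a small heat shock protein gene that passed the filter only through the siCAG libraries, had 4.83 and 1.09 normalized counts against 25.5 and 29.8 (adjusted p = 0.0799), and HSF1, the heat shock transcription factor, had 5529 and 4406 against 8180 and 5944 (adjusted p = 0.267). The median log2 fold change of the heat shock genes was -0.81 against siNT1 and -0.78 against mock. That of the unfolded protein response was -0.81 against siNT1 and -0.48 against mock. A CTG run of 4 or more triplets was in 2 of 20 unfolded protein genes (10%) and 2 of 21 heat shock genes (9.52%), against 2.71% of all genes tested.

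Targets of NRF2, the regulator of antioxidant genes, included the largest raised share of the lists, 6 of 16 (37.5%, against 2.88% of all genes), with 0 lower. SQSTM1, the autophagy receptor p62, rose from 18590 and 17430 normalized counts to 62030 and 90670 (log2 fold change 2.05, standard error 0.27, adjusted p = 0.0122). FTL and FTH1, the ferritin chains, rose by 1.69 and 1.21 on the log2 scale (adjusted p = 0.00872 and 0.0334), TXNRD1 by 1.09, and SLC7A11 belongs to this list too. Ferritin has processed pseudogenes, so some of its reads may be shared. HMOX1, a classical target, had 1906 and 1136 after siNT1 and 2939 and 1161 after siCAG (adjusted p = 0.390), and NQO1 18300 and 15020 against 37080 and 29960 (adjusted p = 0.0753).

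Interferon and RNA-sensing genes were detected at low levels, and 33 of 45 were tested. Of these 7 rose (21.2%, against 2.88% of all genes) and 0 fell, and 5 were higher against mock. IFNB1, IFNL1, RSAD2 and CXCL10 had 0 reads in all siCAG and siNT1 libraries. IRF9 and STAT2, which encode transcription factors of the interferon response, rose from 208 and 239 to 642 and 1210 normalized counts (adjusted p = 0.0155) and from 772 and 908 to 1935 and 3995 (log2 fold change 1.76, adjusted p = 0.0221). IFIT2 rose by 2.67 and IFIT3 by 1.70 on the log2 scale. Against mock these values were 1.94 (adjusted p = 0.0441) and 1.08 (adjusted p = 0.0946), so IFIT3 did not pass there. IFIT1 had 49.3 and 22.8 normalized counts after siNT1 and 98.2 and 87.4 after siCAG (adjusted p = 0.0631). In mock-treated cells it had 85.2 and 74.3, so that its log2 fold change against mock was 0.22 (adjusted p = 0.713). The list median was 0.16 at 24 h and 1.38 at 48 h against siNT1. Fitted over both times it was 0.89 against siNT1 and 0.41 against mock. Of 28 NF-kB targets and cytokines, 23 were tested and 5 rose (21.7%, against 2.88%). ICAM1, an adhesion molecule, rose from 60.9 and 66.3 to 523 and 2665 (log2 fold change 4.19, adjusted p = 0.0317), and had 73.7 and 525 after siGGGGGC. IL6 rose from 15.5 and 16.3 to 91.3 and 229 (log2 fold change 3.23, adjusted p = 0.0192), CSF3 by 2.86, IL1B by 2.03 and IL1A by 1.60. NFKBIA, the feedback inhibitor of NF-kB, had 1004 and 1138 against 1135 and 1084 (adjusted p = 0.904), and TNFAIP3 and CXCL8 did not pass the test either. Of 19 tested immediate early genes and MAPK phosphatases only DUSP5 rose (5.26%, against 2.88% of all genes, log2 fold change 1.33), and MYC had 8133 and 9513 against 9334 and 7278 (adjusted p = 0.850).

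Of 30 apoptosis genes listed, 29 were tested, 4 rose (13.8%, against 2.88% of all genes) and 1 fell (3.45%, against 4.93%), with a median log2 fold change of -0.11. BCL2L1, which encodes the survival protein BCL-XL, rose from 4412 and 4074 normalized counts to 11800 and 12380 (log2 fold change 1.51, standard error 0.20, adjusted p = 0.0137). The initiator caspase gene CASP9 rose from 101 and 112 to 296 and 318 (adjusted p = 0.0340), and the BH3-only genes BMF and HRK rose from low counts, BMF from 4.83 and 30.4 to 44.2 and 237. Against mock CASP9 (adjusted p = 0.0586) and HRK (adjusted p = 0.106) did not pass. BCL2, the founding survival gene of the family, fell from 228 and 248 to 75.6 and 109 (adjusted p = 0.0369). MCL1 had 15990 and 19500 against 11280 and 22990 (adjusted p = 0.804).

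Replication-dependent histone genes, whose main transcripts lack a poly(A) tail, were mostly near 0. Of 73 listed, 44 had under 10 reads in every HeyA8 library and 21 passed the filter, 6 of them only through the siCAG libraries. HIST1H2AC rose from 91.8 and 70.6 normalized counts to 607 and 1241 (log2 fold change 3.49, adjusted p = 0.0137), HIST2H2BE from 69.6 and 34.8 to 345 and 913 (adjusted p = 0.0361) and HIST1H2BD from 45.4 and 28.3 to 214 and 559 (adjusted p = 0.0293). These 3 of 21 (14.3%, against 2.88% of all genes) were the only calls. The genes belong to a family of near-identical copies, and the assignment of reads among them is uncertain. Low histone counts are at odds with the total RNA kit that the labels name, which takes in RNA without a poly(A) tail, so it is unsure which histone transcripts these values measure.

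Genes near 0 in control cells were defined by under 10 reads in each of the 4 siNT1 and mock libraries, which held for 12653 genes. Since a member could pass the filter only through its treated libraries, the counts here are a description. Of these 217 passed the filter and 5 of the 217 were called higher, no larger a share than the 2.88% of all tested genes. These were C10orf10, PCDHA12, LOC101926963, LINC01573 and SNORD116-4, with 11 to 44 reads in the siCAG libraries. C10orf10 alone of the 5 also passed against mock. None of the 12653 reached 50 reads in both siCAG libraries, 0 reached 50 at 24 h and 12 at 48 h; after siGGGGGC it was 0 at 24 h and 4 at 48 h. CCND2, cyclin D2, had 7 and 2 reads after siNT1, 2 and 8 after mock treatment and 25 and 130 after siCAG. PPARGC1A, a coactivator of mitochondrial genes, had 2 and 2 against 8 and 92, and FAM198B 2 and 5 against 6 and 72. SAA1, an acute phase gene, had 8 and 7 reads after siNT1, 14 and 155 after siCAG and 15 and 169 after siGGGGGC, so its value at 48 h was as high with the other siRNA. The orphan nuclear receptor NR4A3 had 6 and 3 reads after siNT1, 6 and 61 after siCAG and 2 and 38 after siGGGGGC. The rest of the 12 were ADGRG4, CD177, SAA2, SOX5, SESN3, ST18 and C1orf101, with 50 to 67 reads at 48 h and at most 14 at 24 h. With near 0 set at under 20 reads, 1014 of 13623 genes passed the filter, of which 17 were called higher and 3 lower. Of the 13623, 9 reached 50 in both siCAG libraries, a choice made on these values, and 3 of the 9 were called. Among the 3 were IL6, with 16 and 15 reads after siNT1 and 93 and 231 after siCAG, and the microRNA gene MIR503, with 10 and 14 against 58 and 103. The 11 neuronal markers summed to 2454 and 2449 normalized counts after siNT1 and 1370 and 941 after siCAG. Of the 2 tested, TUBB3, a tubulin gene and the most abundant, fell by 1.35 on the log2 scale (adjusted p = 0.0492, and 0.0960 against mock) and SYT1 did not pass. The 10 germline markers summed to 25 and 20 normalized counts after siNT1 and 22 and 19 after siCAG, and 0 of the 2 tested passed.

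Genes that went from high to near 0 were read the other way round. Of 9179 genes with at least 200 reads in every control library, 73 were under 10% of siNT1 at 24 h, 223 at 48 h and 33 at both, a choice made on these values and given with no test. FAM111B, a protease gene (chr11:59107185-59127416), was lowest, with 1667 and 1118 normalized counts after siNT1, 2.95 and 1.99 after siCAG and 2430 and 1546 after siGGGGGC. RPL14, a ribosomal protein of the large subunit, had 25860 and 25950 against 447 and 227, and APLN and FREM2 had 356 and 327 against 8.84 and 0.993, and 214 and 328 against 5.89 and 1.99. The 33 also held CCNE2, ZNF367, ESCO2, BRIP1, CDC25A and HELLS. ZNF367 fell from 4350 and 2881 to 114 and 84.4, and CDC25A, a phosphatase that activates CDK2, from 3408 and 2720 to 225 and 26.8. Of the 33, 11 (33.3%, against 2.71% of all tested genes) had a CTG run of 4 or more triplets in the spliced transcript and 5 (15.2%, against 0.482%) one of 6 or more. Among the 13476 tested genes with a GENCODE v44 transcript, 65 had a run of 6 or more, and 39 of them were lower (60%, against 4.93% of all tested genes) and 1 higher, while of 130 genes with a run of 6 or more CAG and no such CTG run 6 (4.62%, close to the share of all tested genes) were lower, a count added after the data were seen. Runs of CTG, the reverse complement of CAG, are shown for RPL14 and LRRC59, abundant members of the 33, with the run in capitals and 6 bases on each side: RPL14 (chr3:40462030-40462059, plus strand, exon 6 of 6) and LRRC59 (chr17:50383147-50383164, minus strand, exon 7 of 7).
RPL14: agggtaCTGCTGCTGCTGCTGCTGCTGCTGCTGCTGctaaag
LRRC59: ctgaagCTGCTGCTGCTGCTGCTGctattt
The coordinates are those of the capitals. FAM111B, CCNE2, ZNF367 and CDC25A had no run of 4 or more.

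Among abundant genes (a mean over 1000 normalized counts) that were called higher, DDIT4, PGPEP1, TXNIP, TP53INP2 and TRIB1 rose most. TXNIP, a thioredoxin inhibitor responsive to glucose, rose from 576 and 1323 to 4628 and 7102 (log2 fold change 2.65, adjusted p = 0.0263) and had 323 and 191 after siGGGGGC. PGPEP1, a peptidase gene next to GDF15 on chromosome 19, rose from 185 and 297 to 1317 and 2888 (log2 fold change 3.09, adjusted p = 0.00776), and TP53INP2, an autophagy regulator, from 247 and 300 to 946 and 2753. Whether counting used the strand of the reads was not stated, so reads of overlapping genes cannot be told apart.

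PC3 cells given siCAG for the same times had fewer calls. Of 15136 genes tested 176 were lower (1.16%) and 6 higher (0.0396%). Of the genes lower in HeyA8 and tested in PC3, 101 of 663 (15.2%) were lower there too, which was 59.8% of the 169 PC3 calls tested in HeyA8, and 1 raised gene was shared. An interaction term, fitted to the 16 libraries together, tested how far the responses differ, and 101 of 15887 genes passed (0.636%), 61 more negative and 40 more positive in HeyA8. Of the replication list 11 of 67 passed, all more negative in HeyA8, and its median log2 fold change in PC3 was -0.52 with 0 calls. Of the mitosis list 4 of 80 passed, and the PC3 median was -0.60 with 1 call. RPL14 had log2 fold changes of -6.30 in HeyA8 and -5.13 in PC3 (adjusted p of the difference = 0.242). CCNE2 had a log2 fold change of -0.52 in PC3 (difference -5.15, standard error 0.73, adjusted p = 0.0115). CDKN1A and GDF15 had -0.17 and -0.31 in PC3, with differences of 2.39 and 3.92 (adjusted p = 0.0286 and 0.0308), and 4 of 34 p53 targets and 3 of 26 ATF4 targets were more positive in HeyA8. None of the heat shock, unfolded protein, NRF2, interferon or NF-kB members passed the test of the difference. In PC3 itself 4 of 20 unfolded protein genes were called lower, against 1.16% of all genes. Among them were EIF2AK3 (log2 fold change -1.92, adjusted p = 0.0121) and DNAJB11 (-0.78, adjusted p = 0.0486). HSP90B1 and SDF2L1 did not pass in PC3 (adjusted p = 0.184 and 0.393). Whether both lines took up the siRNA alike was not stated.

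**Figure D4:**
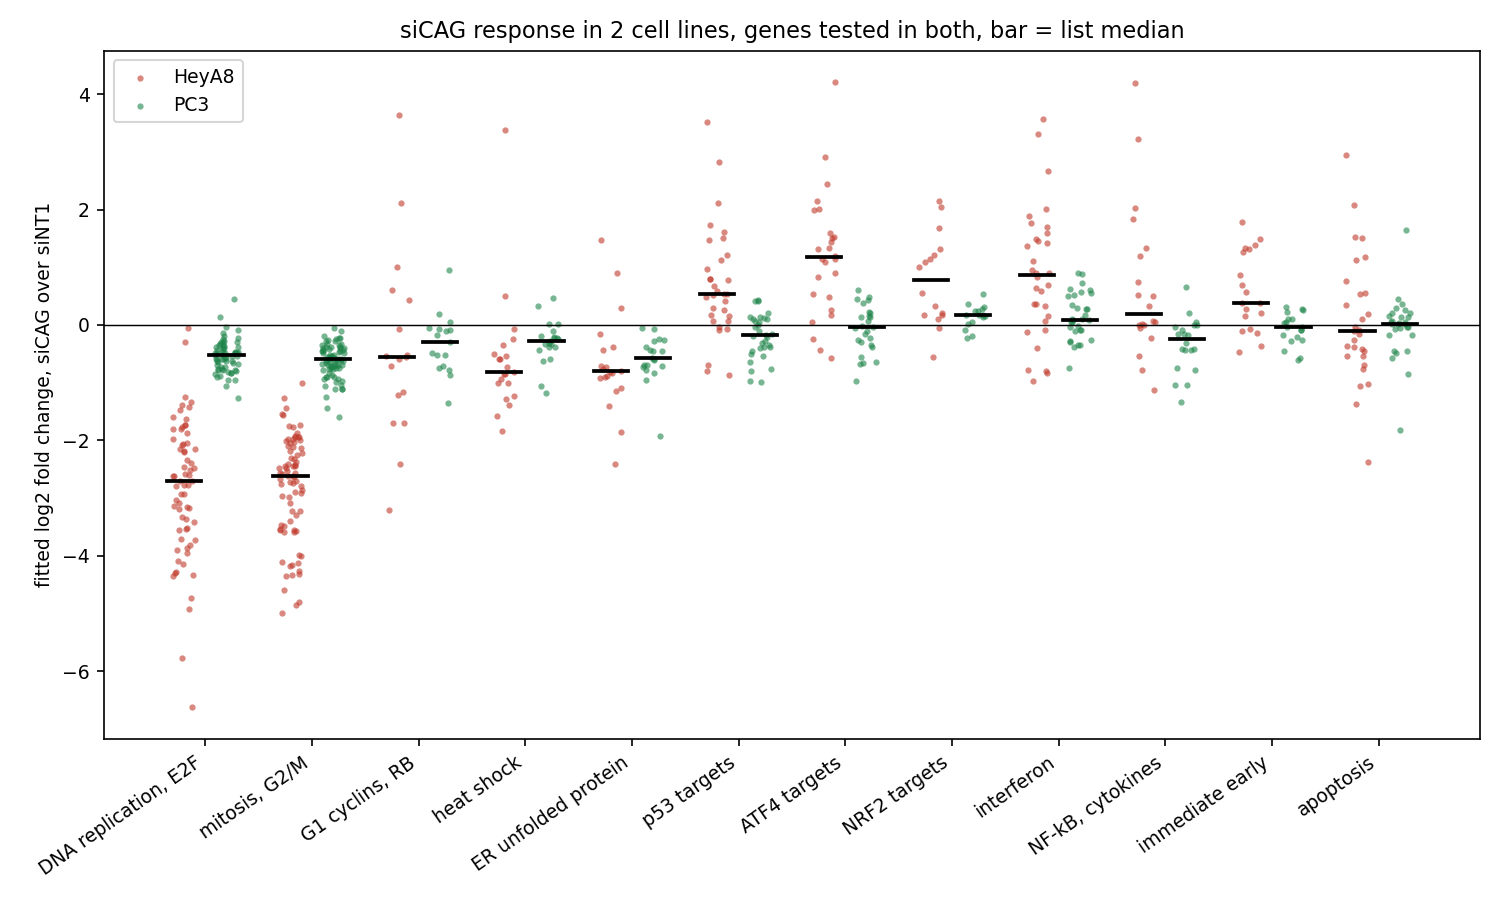
Fitted log2 fold change of siCAG over siNT1 in HeyA8 and PC3 cells for list members tested in both lines, 1 point per gene, bars at list medians. The replication list has medians of -2.71 and -0.52 and the mitosis list of -2.62 and -0.60, and the unfolded protein list of -0.81 and -0.58.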

How the data were processed

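The deposited values are raw counts of reads per gene, which the authors made by trimming reads with Trimmomatic, aligning them to hg38 and counting reads on exons with HTSeq. The methods name both Tophat and STAR as aligners and the labels STAR. The methods do not name siCAG, so whether they cover its libraries in every detail is not stated. Per the methods, libraries came from total RNA with a kit that removes ribosomal RNA, with which the low counts of histone genes are at odds. The deposited table also holds the exon length of each gene, which was read but entered no test. It has 26485 genes named by symbol and 0 columns of no sample.

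HeyA8 counts were filtered with filterByExpr (siRNA as group), scaled by TMM and fitted with edgeR 4.0.16 in R 4.3.3, with siRNA and time point as terms over all 8 libraries (3 residual degrees of freedom, biological coefficient of variation 28.2%). PC3 libraries were fitted alike, and the difference between lines as an interaction over 16 libraries. Normalized counts are TMM-scaled to the mean library. Folds at 1 time point used a pseudocount of 0.5. Alternatives were RLE scaling, DESeq2 1.42.0, other filters, other sets of libraries, no term for time, mock as control and each siCAG and siNT1 library left out. The edgeR step was tested on simulated counts.

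CTG runs were read in GENCODE v44, in 1 transcript per gene, the coding one whose 3′ UTR is longest (12712 genes matched by symbol, 764 by a synonym, 396 unmatched). Promoters came from RefSeq on GRCh38.p14.

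Named genes were, per list, the 4 called members with the largest change, a mean over 100 normalized counts and the same direction at both times. To these came 22 fixed cell cycle and stress genes, the 5 called genes that fell and rose most above 1000, and the 5 lowest of those depleted at both times. Others were chosen after their values were seen. The members and lists were chosen with earlier results of these data known.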

Additional observations from a re-analysis of the deposited data

Results flagged for a closer look

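A test of the difference between HeyA8 and PC3 cells, an interaction term over all 16 libraries in edgeR, flagged 13 of the named genes. Differences are log2 fold changes of siCAG against siNT1 in HeyA8 minus those in PC3. The response was more negative in HeyA8 for FAM111B (-7.19, adjusted p = 0.00458), CCNE2 (-5.15, adjusted p = 0.0115), TTK (-3.77, adjusted p = 0.0450), ZNF367 (-3.64, adjusted p = 0.00452) and RBL1 (-2.37, adjusted p = 0.0110). It was more positive for DDIT3 (2.14, adjusted p = 0.0268), TP53INP2 (2.37, adjusted p = 0.0436), CDKN1A (2.39, adjusted p = 0.0286), ALDH1L2 (2.67, adjusted p = 0.0110), BTG2 (2.71, adjusted p = 0.0110), PGPEP1 (2.82, adjusted p = 0.0110), HIST1H2AC (3.45, adjusted p = 0.0115) and GDF15 (3.92, adjusted p = 0.0308). FAM111B and ZNF367 had log2 fold changes of -1.76 and -1.42 in PC3. The rest of the 13 lay between -0.99 and 0.37 in PC3. Groups of 2 libraries were too small to look for single libraries that stand apart.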

How the results depend on the processing

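The counts of genes lower and higher after siCAG, 684 and 399, stayed within 1.5 times under RLE scaling, both other filters, no replicate block, a 2-fold threshold and mock as the control. DESeq2 gave 1513 and 1152 and called 1080 of the 1083 genes. The 4 siCAG and siNT1 libraries alone, with time as block, gave 432 and 148, and the fit without the siGGGGGC libraries 210 and 56. Without 1 siCAG or siNT1 library the counts ranged from 42 to 3119 lower and from 0 to 2022 higher: at least 1571 in each direction without either siCAG library, at most 53 lower and 1 higher without either siNT1 library, and leaving a siCAG library out removes the gap between its time points from the spread. Lowered members of the replication list (45) numbered 15 without the siGGGGGC libraries and 7 to 66 without 1 of these 4 libraries. Those of the mitosis list (19) numbered 37 with DESeq2, 36 with the 4 libraries alone, 8 without the siGGGGGC libraries and 4 to 80 without 1 siCAG or siNT1 library. Without a term for time (no replicate block) 721 genes were lower and 466 higher, with 39 and 19 members of the replication and mitosis lists. Deviations of same-time libraries from their group means correlated between -0.016 and 0.281. The median of the apoptosis list changed sign, to 0.0998, with mock as the control. No gene rose from near 0 to 50 reads in both siCAG libraries at a limit of 10 reads, and 9 did at a limit of 20. Over 72 named genes and 12 alternatives, the direction of no called gene turned, 155 gene results lost their call and 27 gained one; causes were not tested. The HeyA8 libraries hold 29128446 or more reads each, and with 1 library per siRNA and time no value at a single time has a replicate.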
